A study of Homo sapiens with 27 samples.

Results

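The genes of the lysosome, of autophagy and of the response to damaged lysosomal membranes were examined as a set of 46, chosen by gene symbol from 60683 genes in the deposited tables. By role they were 15 subunits and accessory proteins of the lysosomal proton pump, 11 hydrolases, 3 luminal activators and carriers, 5 proteins of the lysosomal membrane, 2 transcription factors, 8 autophagy genes and 2 galectins. All 46 passed the filter on low counts, which kept 16173 genes for testing. The lowest count of any of the 46 in any library was 74 reads.

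Poly(A) RNA was sequenced from MCF10DCIS.com cells, a human breast line that models ductal carcinoma in situ. Every culture was seeded with 500000 cells and left for 6 h. The 7 control libraries (A to G) received no crystals, and 4 libraries (A to D) each received 1 crystal form of calcium oxalate at 0.1 mg/mL. COM was the monohydrate, grown as plates. The other 4 forms were the dihydrate, in the shape of dumbbells (DB), spheres (SPH), thick bipyramids (TK) or thin bipyramids (TN). All 6 groups shared the cell line and the seeding, and the labels name no gene modification. Not given in the sources used here is how long the crystals stayed on the cells. Whether the libraries within a group are separate cultures is not stated, so a p-value here reflects only how far these samples spread, and that spread may be technical. The series title names bipyramidal crystals, their attachment to breast cancer cells and the cells' phenotype, so both bipyramids were also set against the other forms.

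Lysosomes are acidic compartments in which hydrolases break down material that arrives by endocytosis, phagocytosis or autophagy. The V-ATPase pumps protons in at the cost of ATP: its V1 sector hydrolyses ATP in the cytosol, and its V0 sector carries protons across the membrane. When crystals or other particles injure the membrane, galectins bind glycans exposed on the luminal side, damaged lysosomes can be repaired or removed by autophagy, and the factors TFEB and TFE3 are known to switch on many lysosomal genes through a short promoter motif. These are known roles, not results.

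The libraries held 13115649 to 38672448 counts each (median 19251210). The serial numbers in the library names divide the 27 libraries into sets of 10, 12 and 5, called library sets 1, 2 and 3. TK falls wholly in set 2, with controls C to F. Of each other form, libraries A and B are in set 1 (with controls A and B), library C in set 2 and library D in set 3 (with control G). All tests below carry the library set as a term. The keratins and other basal and epithelial markers were abundant in all 27 libraries, with summed levels of at least 3984 and 2809 TPM (transcript abundance corrected for length and depth). The sum of the epithelial markers was higher in all 8 bipyramid libraries (TK 3634 to 3953 TPM, TN 3283 to 3691 TPM) than in all 7 controls (2809 to 3268 TPM). DB A, DB D, SPH B and SPH D also lay above all controls (3321, 3573, 3673 and 3545 TPM). Most of the sum was KRT8 (mean 1210 TPM in controls, 1557 with TK, 1453 with TN) and KRT18 (1509, 1861 and 1724 TPM). CDH1 averaged 79.5, 77.6 and 64.2 TPM, and EPCAM 262, 284 and 241 TPM. The part of this sum in the bipyramid results was not tested. Of 8 macrophage and leukocyte markers, AIF1 and TYROBP were at 0 in all 27 libraries and PTPRC in 20. The summed level of the 8 ran from 8.30 to 16.9 TPM in controls and from 6.22 to 9.13 TPM with TK. Among the TN libraries it ran from 7.81 to 61.4 TPM. The highest value was in TN B, which held 50.9 TPM of LYZ and 435 TPM of the liver transcript ALB. TN C had a mean fragment length of 296.0 nt, the longest in set 2, where the other libraries lay between 197 and 242 nt. TN results were therefore also computed without TN B and TN C.

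In untreated cells the 46 genes spanned 2 orders of magnitude per unit of length. CD63, a tetraspanin of late endosomes and lysosomes, was highest at 893 ± 138 TPM (mean and SD, n = 7). PSAP, the precursor of the saposins that help to degrade sphingolipids, stood at 818 ± 44.98 TPM, and the aspartic protease CTSD at 603 ± 187 TPM. CTSS, a cysteine protease best known in antigen-presenting cells, was lowest at 5.63 ± 1.30 TPM, next to MCOLN1 at 6.37 ± 1.10 TPM. Most neighbours in this order overlapped between control libraries. All controls of a gene lay above all controls of the next in 3 places: CTSC above SQSTM1, SQSTM1 above ATP6V1F, and ATP6V0E1 above ATP6V0B. Median mean levels were 47.3 TPM for the proton pump, 59.4 TPM for the hydrolases and 14.6 TPM for the autophagy genes.

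Because many members are known targets of TFEB, the promoters were searched for the motif that gives these genes their common name, CLEAR. RefSeq windows on GRCh38.p14, from 250 bases before to 50 after a transcript start, were at hand for 35 of the 46 genes. The core GTCACGTG was looked for on both strands, so that it is also read as CACGTGAC. It contains the shorter CACGTG and is itself part of the palindrome GTCACGTGAC. GTCACGTG was in 8 of the 52 windows of these genes (15.4%), against 2.40% of all 35116 windows of this length. The 8 windows belong to 8 of the 35 genes (22.9%). These genes were ATP6V0D1, ATP6V0B, ATP6V1G1, CTSA, CTSD, GAA, LAMP1 and MCOLN1. CACGTG was in 9 of the 52 windows (17.3%), against 7.26% of all windows. The palindrome was in 3 of the 52 (5.77%), against 0.353%. The 100 bases before the start are printed for 6 of the 8 genes, to show the motif in genes that rose with bipyramids beside 1 that fell and 1 that was not called. Sequences run 5′ to 3′ along the gene, with GTCACGTG, CACGTGAC and GTCACGTGAC in capitals.
ATP6V0D1 (chr16:67481158-67481257, minus strand): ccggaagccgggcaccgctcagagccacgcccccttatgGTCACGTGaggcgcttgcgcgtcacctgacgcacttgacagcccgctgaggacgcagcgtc
ATP6V0B (chr1:43974860-43974959, plus strand): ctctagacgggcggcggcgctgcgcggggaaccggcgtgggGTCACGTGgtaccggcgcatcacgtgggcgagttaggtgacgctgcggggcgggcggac
ATP6V1G1 (chr9:114587669-114587768, plus strand): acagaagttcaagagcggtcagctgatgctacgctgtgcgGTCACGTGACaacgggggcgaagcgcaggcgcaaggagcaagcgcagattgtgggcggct
MCOLN1 (chr19:7522524-7522623, plus strand): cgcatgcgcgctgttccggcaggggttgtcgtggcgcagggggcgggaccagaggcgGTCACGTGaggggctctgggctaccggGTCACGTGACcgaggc
GAA (chr17:80101481-80101580, plus strand): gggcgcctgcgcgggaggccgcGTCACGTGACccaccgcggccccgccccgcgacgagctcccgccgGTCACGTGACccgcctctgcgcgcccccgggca
CTSA (chr20:45891235-45891334, plus strand): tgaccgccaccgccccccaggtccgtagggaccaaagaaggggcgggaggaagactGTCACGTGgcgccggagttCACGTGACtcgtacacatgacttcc
A match is a description of these letters and is not a measured binding site.

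Against controls, TK gave the largest number of calls among the 46 genes, followed by TN. Calls are genes with an adjusted p under 0.05 in edgeR's quasi-likelihood test, by the Benjamini-Hochberg method over all 16173 genes. With TK, 12 of the 46 genes rose and 5 fell, against 8.04% and 7.33% of all genes tested. With TN, 9 rose and 2 fell, against 6.84% and 4.88% of all genes. With DB, 4 rose and 1 fell, against 5.92% and 4.10%. With COM, 4 rose and 0 fell, against 3.94% and 2.42%. With SPH, 0 of 46 were called, where 0.111% of all genes were. For SPH, edgeR gave 0 genes with an unadjusted p under 0.05 among the 46, against 1047 of all 16173 genes, and DESeq2 also called 0. A joint test for any difference between the 6 groups called 22 of the 46 genes, against 23.2% of all genes. The members' median log2 fold change was 0.02 with TK and 0.10 with TN, against −0.02 and 0.00 over all genes. The comparisons with controls share the same control libraries. Medians and counts are given below for each subset, and differences between subsets were not tested.

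**Figure D1:**
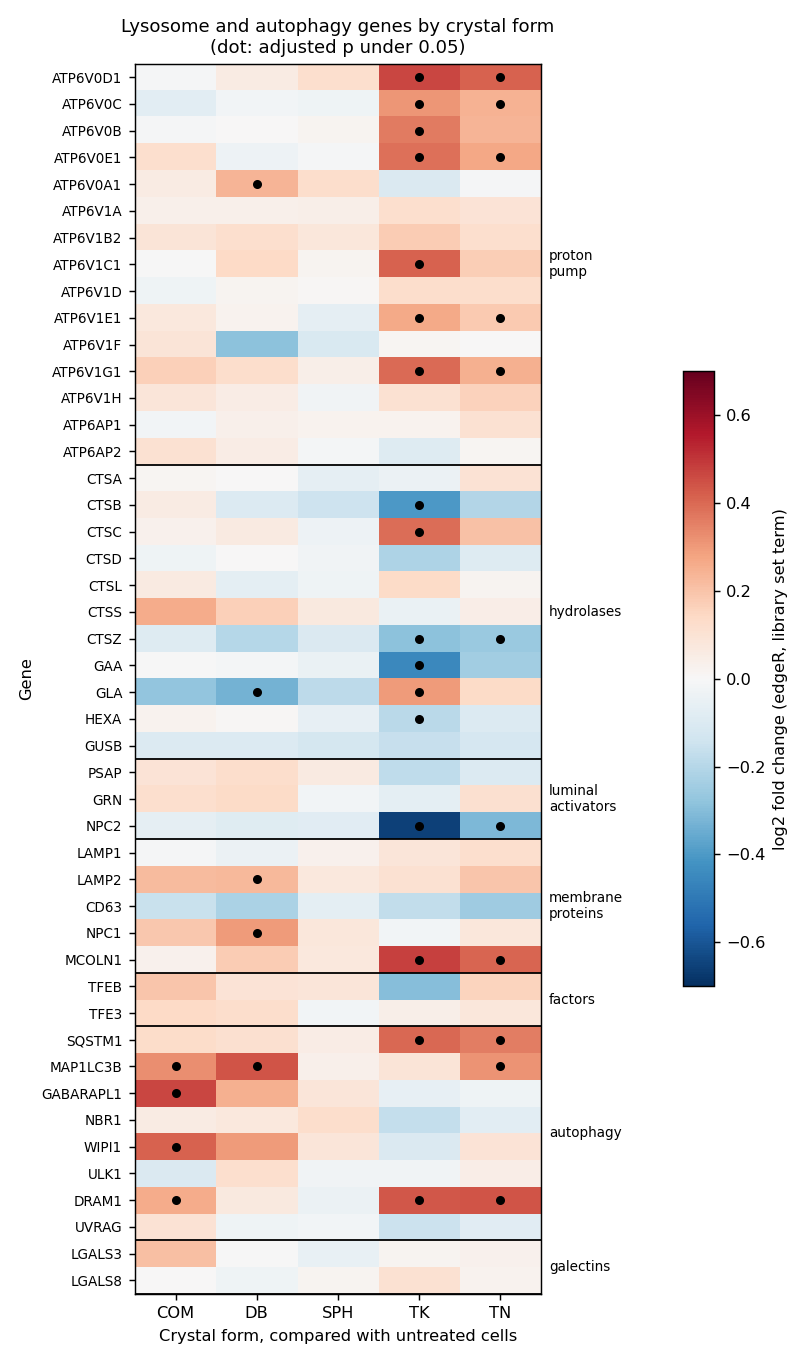
Colour shows the log2 fold change of each of the 46 genes (rows, by role) in cells given each crystal form against the 7 control libraries, from the edgeR model with a library set term. Dots mark the calls, which number 4 with COM, 5 with DB, 0 with SPH, 17 with TK and 11 with TN.

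Of the 15 listed genes of the proton pump, some rose with both bipyramids. With TK, 7 of the 15 rose and 0 fell, with a median log2 fold change of 0.18. With TN, 5 rose and 0 fell, with a median of 0.16. As a share called, the pump (46.7% with TK, 33.3% with TN) stood below the hydrolases with TK (54.5%) and the autophagy genes with TN (37.5%). Of all genes tested, 15.4% were called with TK and 11.7% with TN. With DB 1 of the 15 was called (6.67%, below the 10.02% of all genes), and with COM and SPH 0 were. At an unadjusted p under 0.05, edgeR gave 1 pump gene for COM and 0 for SPH, against 3299 and 1047 of all 16173 genes. DESeq2 called 0 pump genes in both.

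ATP6V0D1 encodes the V0 subunit d that joins the membrane ring to the central stalk. Its controls ran from 33.3 to 43.0 CPM (counts scaled to the library's size), with a median of 39.5. The TK libraries held 54.2, 51.8, 55.2 and 48.7 CPM, and the TN libraries 62.6, 52.9, 43.7 and 45.6 CPM. All 8 bipyramid libraries lay above all 7 controls, while COM (37.2 to 39.5 CPM), DB (37.4 to 43.2 CPM) and SPH (39.6 to 43.8 CPM) overlapped the controls. Fitted fold changes were 1.38 for TK (log2 0.46 ± 0.08 SE, edgeR adjusted p = 0.000559) and 1.33 for TN (log2 0.42 ± 0.08 SE, adjusted p = 0.00161). The other forms gave log2 −0.01 ± 0.08 (COM, adjusted p = 0.972), 0.06 ± 0.08 (DB, 0.741) and 0.12 ± 0.08 (SPH, 0.918). The ATP6V0D1 stretch printed above holds the motif once.

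Other V0 genes rose with TK too. ATP6V0E1, the small subunit e, stood at 117, 106, 121 and 111 CPM with TK, above all controls (83.9 to 98.1 CPM, median 89.4). Its TN libraries held 136, 124, 91.8 and 103 CPM, of which the third lay within the control range. It rose by log2 0.39 ± 0.08 with TK (edgeR adjusted p = 0.00201) and 0.27 ± 0.08 with TN (adjusted p = 0.0271). ATP6V0B and ATP6V0C encode proteolipids of the proton-carrying ring. ATP6V0C rose by log2 0.31 ± 0.07 with TK and 0.25 ± 0.07 with TN (edgeR adjusted p = 0.00323 and 0.0171). ATP6V0B rose by 0.37 ± 0.09 with TK (adjusted p = 0.00886). The exception in V0 was ATP6V0A1, an isoform of the large subunit a. It was not called with TK (log2 −0.10 ± 0.06, edgeR adjusted p = 0.301) and rose with DB (log2 0.24 ± 0.06, adjusted p = 0.0152). Its 4 DB libraries, at 59.1 to 60.9 CPM, all lay above the controls (47.4 to 53.9 CPM).

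In the V1 sector, 3 genes of the stalks rose with TK, while ATP6V1A, ATP6V1B2, ATP6V1D, ATP6V1F and ATP6V1H were not called. ATP6V1C1, whose product links V1 to V0 when the pump assembles, stood at 33.7, 37.2, 35.8 and 36.7 CPM with TK against 26.1 to 29.6 CPM in controls (median 27.5). It rose by log2 0.41 ± 0.08 (edgeR adjusted p = 0.000776). ATP6V1G1 and ATP6V1E1 form the outer stalks. They rose with TK by log2 0.39 ± 0.09 and 0.27 ± 0.06 (edgeR adjusted p = 0.0026 and 0.00447), and with TN by 0.25 ± 0.08 and 0.18 ± 0.06 (adjusted p = 0.0495 and 0.0487). The head subunits ATP6V1A and ATP6V1B2 gave log2 0.12 ± 0.07 and 0.18 ± 0.07 with TK (edgeR adjusted p = 0.267 and 0.0843). ATP6V1H, a regulatory subunit, gave 0.10 ± 0.06 with TK and 0.16 ± 0.06 with TN (adjusted p = 0.271 and 0.0733). The TK libraries of ATP6V1B2 nevertheless all lay above the controls.

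These pump calls did not all hold when single libraries were left out. With TK, only ATP6V0B lost its call, without TK C (edgeR adjusted p = 0.0524). With TN, ATP6V0D1 was called in all 11 cases. ATP6V0C lost its call without TN A (adjusted p = 0.0898), and ATP6V0E1 without any 1 of controls A, B and G, TN A and TN B (at most 0.200). ATP6V1E1 lost it without any 1 of controls A, B, C, E, F and G, TN A, TN B and TN C (at most 0.216), and ATP6V1G1 without any 1 of the same 6 controls, TN A and TN B (at most 0.263). In a model without the library set term, ATP6V0C and ATP6V1E1 lost their TK calls (log2 0.17 and 0.18, adjusted p = 0.315 and 0.162), and ATP6V0C, ATP6V1E1 and ATP6V1G1 lost their TN calls (adjusted p = 0.0626, 0.0990 and 0.0644). Under RLE scaling ATP6V1E1 and ATP6V1G1 also just missed the TN threshold (adjusted p = 0.0505 and 0.0518).

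**Figure D2:**
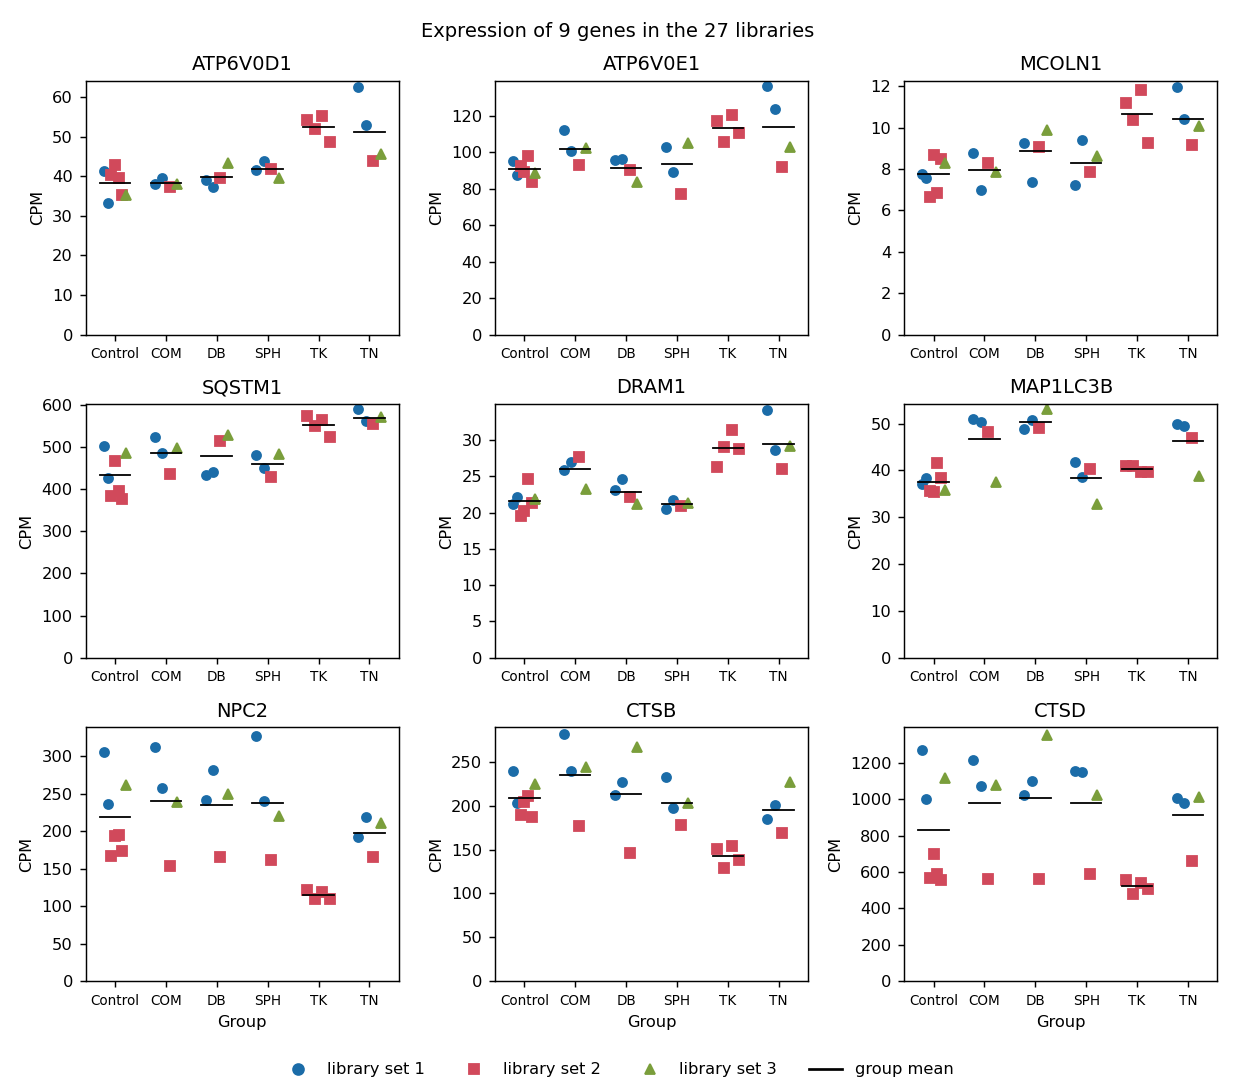
Expression of 9 genes in CPM for each library, by group, with the library set shown by marker and the group mean by a line. For ATP6V0D1, MCOLN1, SQSTM1 and DRAM1 all TK and TN libraries lie above all 7 controls, for NPC2 and CTSB all TK libraries lie below them, and CTSD separates by library set.

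The hydrolases and luminal proteins moved in both directions with TK. Of the 11 hydrolases 2 rose and 4 fell, with a median log2 fold change of −0.16, and of the 3 luminal activators and carriers 1 fell. With TN 1 hydrolase and 1 luminal carrier fell, and the hydrolase median was −0.09. The share of hydrolases called was 54.5% with TK and 9.09% with TN, against 15.4% and 11.7% of all genes. In the model without the library set term the TN hydrolase median was 0.05 and none of the 11 was called, so its sign depended on that term.

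NPC2, a luminal carrier that takes cholesterol from internal membranes and hands it to NPC1, showed the largest fall. Controls ran from 166 to 305 CPM with a median of 195, and the TK libraries held 121, 109, 119 and 110 CPM. All TK libraries lay below all controls, also below the 4 controls of their own set (166 to 195 CPM). NPC2 fell by 0.65 ± 0.10 on the log2 scale with TK (edgeR adjusted p = 0.000106). The TN libraries held 192, 219, 166 and 211 CPM and overlapped the controls, and the fitted fall was log2 −0.32 ± 0.10 (edgeR adjusted p = 0.0313). That TN call was lost without any 1 of controls A and G, TN A and TN B (at most adjusted p = 0.151), and without the library set term (log2 −0.15, adjusted p = 0.691).

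CTSB, a cysteine protease that leaks from injured lysosomes, stood at 151, 128, 154 and 138 CPM with TK, below all controls (187 to 239 CPM, median 204). It fell by log2 −0.40 ± 0.09 with TK (edgeR adjusted p = 0.00419) and gave −0.21 ± 0.09 with TN (adjusted p = 0.142). GAA, the acid alpha-glucosidase that digests glycogen, stood at 45.5, 42.3, 39.9 and 41.2 CPM with TK against 51.0 to 88.9 CPM in controls. It fell by log2 −0.45 ± 0.11 (edgeR adjusted p = 0.0079). The cathepsin CTSZ fell by log2 −0.29 ± 0.08 with TK and −0.26 ± 0.08 with TN (edgeR adjusted p = 0.0189 and 0.0359). HEXA, a chain of beta-hexosaminidase, fell by −0.19 ± 0.06 with TK (adjusted p = 0.0298).

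Against these falls, CTSC rose. It encodes the dipeptidyl peptidase that activates granule proteases in immune cells, and its TK libraries held 598, 593, 643 and 581 CPM, above all controls (377 to 495 CPM, median 460). The rise was log2 0.39 ± 0.07 (edgeR adjusted p = 0.00068). GLA, the alpha-galactosidase that cleaves globosides, rose with TK (log2 0.30 ± 0.10, edgeR adjusted p = 0.0369) and fell with DB (log2 −0.33 ± 0.10, adjusted p = 0.0294). CTSD was not called with any form, at log2 −0.22 ± 0.09 with TK (adjusted p = 0.104), and its level followed the library set. With mean fragment length as a further term, CTSD was called with TK (log2 −0.26, adjusted p = 0.0488).

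Left out singly, libraries ended the calls of CTSZ with TK (TK B or TK D, at most adjusted p = 0.0871) and with TN (control A, TN A, TN C or TN D, at most 0.124). The same held for HEXA with TK (controls C, D and E and each TK library, at most 0.117). It held for GLA with TK (controls A, B and E, TK A, TK C and TK D, at most 0.113) and with DB (controls F and G, DB A, DB B and DB D, at most 0.109). Without the library set term the TN call of CTSZ was lost (edgeR adjusted p = 0.180).

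**Figure D3:**
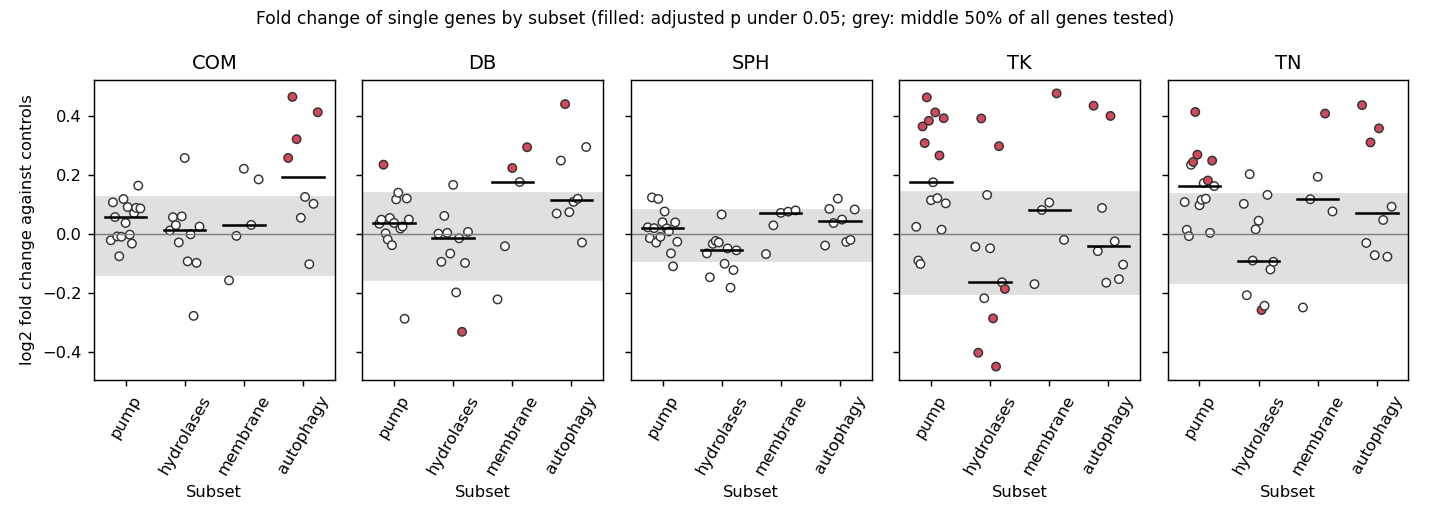
Each point is the log2 fold change of 1 gene in cells given a crystal form against controls (edgeR, library set term) for the proton pump (15 genes), hydrolases (11), membrane proteins (5) and autophagy genes (8). Filled points are called, lines are subset medians, and grey spans the middle 50% of all 16173 genes. With TK the pump median is 0.18 and the hydrolase median −0.16, and with COM the 4 filled points are all autophagy genes.

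Among the proteins of the lysosomal membrane, MCOLN1 rose with both bipyramids. It encodes a channel that lets calcium out of the lysosome. Controls ran from 6.64 to 8.68 CPM with a median of 7.79, and the libraries held 11.2, 10.4, 11.8 and 9.26 CPM with TK and 11.99, 10.4, 9.16 and 10.1 CPM with TN. All 8 lay above all controls. MCOLN1 rose by log2 0.48 ± 0.11 with TK (1.39-fold, edgeR adjusted p = 0.00419) and 0.41 ± 0.11 with TN (1.33-fold, adjusted p = 0.0117). Without TN A the TN call was lost (adjusted p = 0.0979). PNPLA6 overlaps MCOLN1 on the same strand and is the more abundant of the pair, so reads of the 2 genes may be shared. It gave log2 −0.15 with TK and −0.11 with TN and was called in neither (edgeR adjusted p = 0.229 and 0.381).

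LAMP1 and LAMP2 are the heavily glycosylated proteins that line the lysosomal membrane. LAMP1 was not called with any form, at log2 0.08 ± 0.05 with TK and 0.12 ± 0.05 with TN (edgeR adjusted p = 0.296 and 0.124). LAMP2 was called with DB at log2 0.22 ± 0.07 (edgeR adjusted p = 0.045). That call was lost in 9 of 11 fits that left out 1 library, all but those without control B or DB C (at most adjusted p = 0.162). With mean fragment length as a further term it was log2 0.08 (adjusted p = 0.454). Mean fragment lengths were 232 to 318 nt in DB libraries and 197 to 268 nt in controls. NPC1, the membrane protein that exports cholesterol from the lysosome, rose with DB. Its DB libraries held 82.7, 79.8, 94.8 and 94.4 CPM, above all controls (68.8 to 79.1 CPM), at log2 0.30 ± 0.07 (edgeR adjusted p = 0.00708). Without the library set term the adjusted p of NPC1 was 0.0509. With fragment length as a further term NPC1 and GLA also lost their DB calls (edgeR adjusted p = 0.0561 and 0.137), while MAP1LC3B and ATP6V0A1 were still called (0.00116 and 0.0488). CD63 was not called with any form.

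Some of the autophagy genes rose with COM. With COM, 4 of the 8 rose, with a subset median of log2 0.19. In edgeR they were the only 4 of the 46 genes called, and DESeq2 called LAMP2 in addition (log2 0.22, adjusted p = 0.039). Against the controls of set 1 alone, 2 of the 8 were called, where 661 of 16173 genes were. In set 3, COM D and control G held 37.56 and 35.85 CPM of MAP1LC3B and 17.03 and 13.82 CPM of GABARAPL1. For WIPI1 they held 29.71 and 29.8 CPM, and for DRAM1 23.24 and 21.81 CPM. With TN 3 rose, with TK 2 and with DB 1, and in none of these comparisons did an autophagy gene fall. With SPH 0 of 8 were called by edgeR or DESeq2, and 0 had an unadjusted p under 0.05.

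SQSTM1 (p62), a receptor that carries ubiquitin-tagged cargo into autophagosomes, was the most abundant of the 8. Controls ran from 377 to 502 CPM with a median of 427. The libraries held 573, 549, 563 and 524 CPM with TK and 590, 561, 554 and 572 CPM with TN, all above all controls. SQSTM1 rose by log2 0.40 ± 0.07 with TK and 0.36 ± 0.07 with TN (edgeR adjusted p = 0.000606 and 0.00164). It was not called with COM, DB or SPH, at log2 0.13 ± 0.07, 0.11 ± 0.07 and 0.05 ± 0.07 (adjusted p = 0.335, 0.358 and 0.976).

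DRAM1 encodes a lysosomal membrane protein that promotes autophagy downstream of p53. Its controls ran from 19.5 to 24.7 CPM with a median of 21.2, and it stood between 26.3 and 31.3 CPM in the 4 TK libraries and at 34.2, 28.6, 25.98 and 29.1 CPM with TN. All 8 bipyramid libraries lay above the controls. DRAM1 rose by log2 0.44 ± 0.08 with TK, 0.44 ± 0.07 with TN and 0.26 ± 0.07 with COM (edgeR adjusted p = 0.000392, 0.000354 and 0.0337). The COM call was lost without any 1 of controls A, B, C and F, COM A, COM B and COM C (at most adjusted p = 0.260).

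MAP1LC3B and GABARAPL1 encode proteins that are joined to lipid on the growing autophagosome. MAP1LC3B libraries held 48.8, 50.8, 49.0 and 53.1 CPM with DB, all above the controls (35.5 to 41.6 CPM, median 37.2). With COM they held 51.0, 50.5, 48.3 and 37.6 CPM, of which the last lay within the control range. MAP1LC3B rose by log2 0.44 ± 0.07 with DB, 0.32 ± 0.07 with COM and 0.31 ± 0.07 with TN (edgeR adjusted p = 0.000177, 0.00354 and 0.00294). It was not called with TK (log2 0.09 ± 0.07, adjusted p = 0.425). Its near-copy MAP1LC3B2 was low, with a median of 0.930 TPM against 27.9 TPM. GABARAPL1 stood at 18.96, 15.8, 12.4 and 17.03 CPM with COM against 7.79 to 13.8 CPM in controls, with COM C inside that range, and rose by log2 0.47 ± 0.09 (edgeR adjusted p = 0.00231). WIPI1, which binds the phosphoinositide that marks sites of autophagosome formation, stood at 39.9, 31.2, 19.6 and 29.7 CPM with COM. Its controls ran from 15.7 to 29.8 CPM and overlapped COM C and COM D. It rose by log2 0.41 ± 0.11 with COM (edgeR adjusted p = 0.019), but the call was lost without COM A or COM B (at most adjusted p = 0.163).

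WIPI1 was highest in set 1 in COM-treated cells and gave log2 0.65, 0.19 and −0.005 against the controls of sets 1, 2 and 3. The remaining autophagy genes, the kinase ULK1, the cargo receptor NBR1 and UVRAG of the vesicle maturation complex, were not called against controls with any form. Several members overlap a neighbour on the opposite strand (SQSTM1 with MGAT4B, MAP1LC3B with FBXO31, NPC2 with ISCA2, NPC1 with RMC1, WIPI1 with ARSG, LGALS8 with HEATR1, ATP6V1D with EIF2S1). How the counting treated strand is not known here, so reads of such pairs cannot be told apart. In bulk RNA, fewer cells of a type and less RNA per cell cannot be told apart either.

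The factors TFEB and TFE3 and the galectins LGALS3 and LGALS8 were not called in any comparison with controls. TFEB gave log2 −0.30 ± 0.13 with TK (95% interval −0.56 to −0.04, edgeR adjusted p = 0.115) and 0.16 ± 0.12 with TN (−0.09 to 0.40, adjusted p = 0.437). Its TK libraries held 8.68, 8.80, 10.96 and 10.4 CPM, below the 4 controls of set 2 but within the range of all 7 (8.24 to 13.7 CPM). LGALS3, the galectin most used as a marker of ruptured vesicles, gave log2 0.02 ± 0.10 with TK (95% interval −0.18 to 0.22) and 0.21 ± 0.09 with COM (0.02 to 0.40, edgeR adjusted p = 0.186). LGALS8 gave 0.11 ± 0.07 with TK (adjusted p = 0.309). These are RNA levels, and the damage response of galectins is a change of place in the cell that RNA does not show.

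Promoters with GTCACGTG were found on both sides of the TK response. Of the 8 genes with the motif, 4 rose with TK (ATP6V0D1, ATP6V0B, ATP6V1G1 and MCOLN1), 1 fell (GAA) and 3 were not called (CTSA, CTSD and LAMP1). Of the 27 genes with a window but no match, 6 rose, 2 fell and 19 were not called. With TN, 3 of the 8 rose and 5 were not called, and of the 27 others 5 rose, 2 fell and 20 were not called. GAA, which fell with TK, holds the full palindrome in 2 places in the stretch printed above, and MCOLN1 and ATP6V1G1, which rose, hold it once. LAMP1, not printed and called with neither bipyramid, holds the core in 6 places of its window, the most of the 8. CTSD, also not printed and called with neither, holds it in 1.

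Levels of single libraries were also compared. Of the 46 genes, 9 had all 4 TK libraries above all 7 controls and 7 had all 4 below, where 8.14% and 6.94% of all genes did so. The 9 comprised 5 pump genes, the hydrolase CTSC, MCOLN1, SQSTM1 and DRAM1. The 7 comprised 4 hydrolases, the luminal proteins PSAP and NPC2, and a pump gene, ATP6AP2. ATP6AP2, the accessory protein also known as the prorenin receptor, stood at 62.4 to 67.1 CPM with TK and 67.6 to 82.4 CPM in controls, but was not called (log2 −0.09 ± 0.05, edgeR adjusted p = 0.275). Against the 4 controls of the same library set, 12 lay above and 9 below, where 11.3% and 10.4% of all genes did. With TN, 4 genes (ATP6V0D1, MCOLN1, SQSTM1 and DRAM1) lay above all controls, against 1.57% of all genes. With DB, 3 genes (ATP6V0A1, NPC1 and MAP1LC3B) did, against 2.10%. ATP6V0A1 also lay above all controls in the 4 SPH libraries (54.0 to 59.1 CPM), though only just, as control B held 53.9 CPM. It was not called with SPH.

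The comparison within library sets showed how far the bipyramid calls rest on 1 set. All TK libraries belong to set 2, and against the 4 controls of that set 16 of the 46 genes were called, where 12.5% of all genes were. With TN, 14 of 46 were called within set 1 (14.2% of all genes), 3 within set 2 (5.05%) and 0 within set 3 (0.0989%). Set 2 holds 1 TN library. All contrasts within sets come from 1 fit of the 27 libraries with a mean for each group and set. Its spread is taken from every group and set with more than 1 library. Set 3 holds 1 library each of Control, COM, DB, SPH and TN. DESeq2 was not run within sets. ATP6V0D1 gave log2 0.63, 0.15 and 0.37 with TN in sets 1, 2 and 3. SQSTM1 gave 0.31, 0.45 and 0.24, and DRAM1 gave 0.53, 0.28 and 0.42. For ATP6V0E1 the values were 0.51, 0.01 and 0.22. The TN effect differed between set 1 and set 2 for 1 of the 46 genes (NBR1), against 5.81% of all genes. Without the library set term, 6 of the 46 were called with TN, against 4.30% of all genes. Without TN B and TN C together, 7 of the 46 were called, where 1531 of the 16790 genes tested in that fit were. ATP6V0D1, ATP6V0E1, MCOLN1, SQSTM1, MAP1LC3B, DRAM1 and NPC2 kept their calls, at log2 0.54, 0.36, 0.51, 0.34, 0.29, 0.58 and −0.43.

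**Figure D4:**
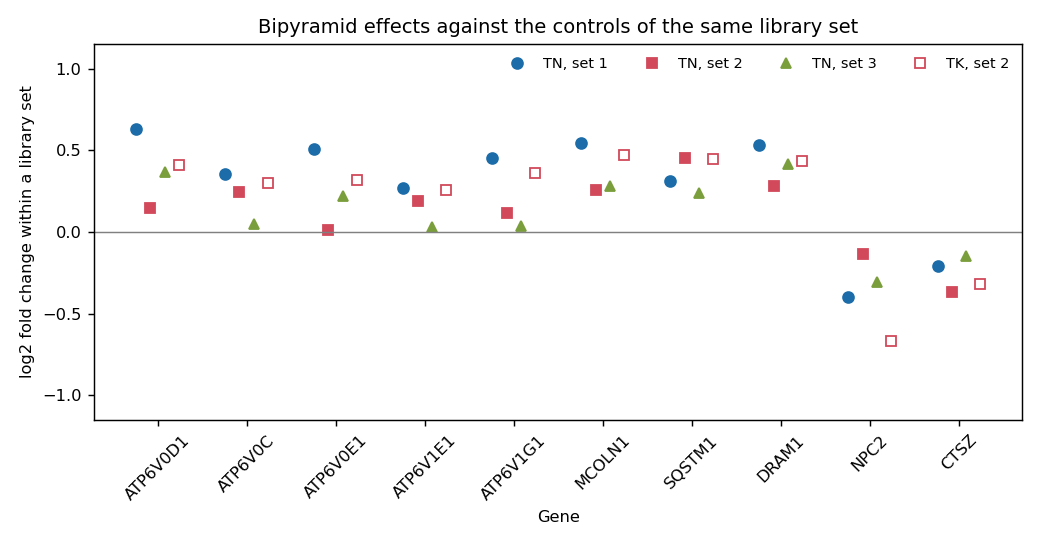
Log2 fold changes against the controls of the same library set are plotted for 10 genes. TN has 1 value in each of the 3 sets and TK, all in set 2, has 1. All values for ATP6V0D1, SQSTM1 and DRAM1 are above 0, while ATP6V0E1 with TN runs from 0.01 in set 2 to 0.51 in set 1.

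Thick and thin bipyramids were compared directly at the same dose. Set 2 holds all 4 TK libraries but only 1 TN library, TN C, so this contrast rests largely on the fitted set term. Of the 46 genes 0 were called, where 0.216% of all genes were. DESeq2 also called 0, and edgeR gave 5 an unadjusted p under 0.05, where 1670 of all 16173 genes had one. ATP6V0D1 differed by log2 −0.05 between TN and TK (95% interval −0.26 to 0.16), MCOLN1 by −0.07 (−0.34 to 0.20) and SQSTM1 by −0.04 (−0.22 to 0.14). NPC2 was log2 0.34 higher with TN (0.10 to 0.58, edgeR adjusted p = 0.283) and TFEB 0.46 higher (0.15 to 0.76, adjusted p = 0.250). MAP1LC3B was 0.22 higher with TN (0.05 to 0.39, adjusted p = 0.317). For ATP6V0D1, MCOLN1 and SQSTM1 the intervals reach no further than −0.34, short of the rises of at least log2 0.36 against controls. A missed threshold does not show that the 2 shapes act alike. Without TN B and TN C, edgeR called 0 of the 46 genes, where 13 of 16790 genes were called. In that fit TN and TK share no library set, so it cannot separate the 2 shapes apart from the set term.

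Bipyramids differed from the rounded dihydrate forms, dumbbells and spheres, in 18 of the 46 genes. With bipyramids 12 were higher and 6 lower, against 10.3% and 9.46% of all genes tested. Of the 15 pump genes 7 were higher and 1, ATP6V0A1, was lower (log2 −0.23 ± 0.05, edgeR adjusted p = 0.00176). The smallest p was that of DRAM1, higher by log2 0.42 ± 0.06 (95% interval 0.30 to 0.55, edgeR adjusted p = 4.1e-05). GLA was higher by 0.47 ± 0.08 (0.31 to 0.64, adjusted p = 0.000161) and ATP6V0C by 0.30 ± 0.06 (0.19 to 0.42, 0.00048). ATP6V0E1 and ATP6V0D1 were each higher by 0.35 ± 0.07 (adjusted p = 0.000519 and 0.000627), and SQSTM1 by 0.30 ± 0.06 (0.000781). Against controls, GLA had fallen with DB and risen with TK. Without TN A the calls of ATP6V1C1, ATP6V1G1, GAA and MCOLN1 were lost (at most adjusted p = 0.0959), that of ATP6V1C1 also without SPH C, and that of NPC1 was lost without any 1 of 13 of the 16 libraries, all but DB B, SPH D and TN C (at most 0.142). Without TN B and TN C, 18 of the 46 genes were again called, 12 higher and 6 lower, though NPC1 was not among them. Of all 16790 genes tested in that fit, 1853 were higher and 1673 lower. Without the library set term, ATP6V0C was no longer called (log2 0.18, edgeR adjusted p = 0.152).

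Monohydrate plates differed from the 4 dihydrate forms as a group in 3 of the 46 genes, against 3.79% of all genes. GABARAPL1 was higher with COM by log2 0.40 ± 0.08 (95% interval 0.24 to 0.57, edgeR adjusted p = 0.00577). ATP6V0D1 was lower by log2 −0.27 ± 0.07 (−0.42 to −0.12, edgeR adjusted p = 0.0374). CTSB was higher by 0.27 ± 0.08 (0.11 to 0.43, adjusted p = 0.0494). Leaving out 1 library ended the call of GABARAPL1 only without COM A (adjusted p = 0.0992). It ended that of ATP6V0D1 without any COM library, SPH B or TK A (at most 0.184), and that of CTSB in 18 of 20 cases, all but those without DB D or SPH A (at most 0.356). Without the library set term only GABARAPL1 was called (adjusted p = 0.0499). Against controls, ATP6V0D1 and CTSB were not called with COM (log2 −0.009 and 0.058, edgeR adjusted p = 0.972 and 0.788). ATP6V0D1 gave log2 0.055 with DB, 0.12 with SPH, 0.465 with TK and 0.415 with TN against controls. CTSB gave −0.094, −0.147, −0.403 and −0.208. For both genes the largest change against controls was with TK, followed by TN.

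Untreated cells themselves differed between library sets in the genes described here. Between the 4 controls of set 2 and the 2 of set 1, 1 of the 46 genes was higher in set 2 and 12 were lower, where 6.47% and 7.46% of all genes were. CTSD was lower by log2 −0.91 ± 0.10 (edgeR adjusted p = 1.3e-05). Its controls held 1270 and 1001 CPM in set 1, then 565, 702, 591 and 554 CPM in set 2, and 1120 CPM in set 3. LGALS3 was lower by log2 −0.63 ± 0.11 and NPC2 by −0.57 ± 0.12 (edgeR adjusted p = 0.000677 and 0.00486). GRN, LAMP2 and LGALS8 were lower by −0.57 ± 0.09, −0.56 ± 0.08 and −0.44 ± 0.07 (adjusted p = 0.000283, 0.000157 and 0.000562). CTSC was higher by 0.29 ± 0.08 (adjusted p = 0.0144). Also lower in set 2 were ATP6V0C and GAA, called above with TK, by −0.29 and −0.47 (edgeR adjusted p = 0.00782 and 0.0131). GABARAPL1 and WIPI1, called above with COM, were lower by −0.50 and −0.41 (adjusted p = 0.0149 and 0.0267). These 4 set differences were no longer called without control A. The differences of ATP6V0D1, MCOLN1 and MAP1LC3B between the 2 sets were not called. The NPC2 call was lost without control A (adjusted p = 0.113), and the CTSC call without control A or B (at most 0.0944).

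**Figure D5:**
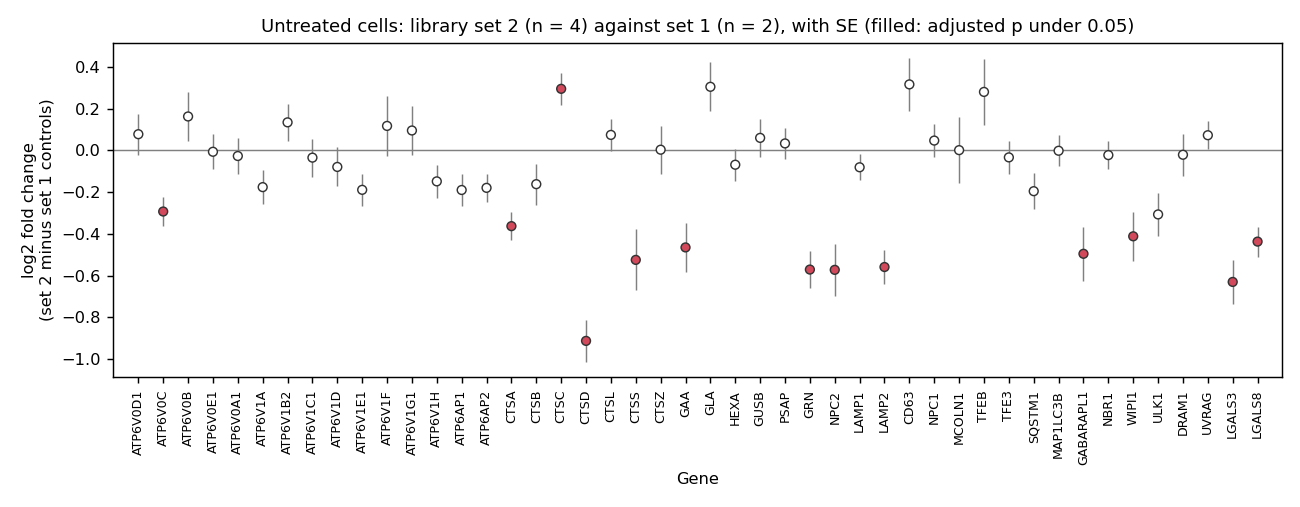
Points are log2 differences between control libraries of set 2 (n = 4) and set 1 (n = 2) for each of the 46 genes, with the SE of the edgeR fit. Filled points are called: 12 genes are lower in set 2, CTSD furthest at −0.91, and CTSC is higher at 0.29.

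A wider list of 156 genes of the same pathways, of which 152 were tested, gave further genes by role. With TK, 15 rose and 15 fell, with TN 16 rose and 6 fell, with DB 11 rose and 2 fell, and with COM 9 rose and 1 fell, while with SPH 0 were called. The share called was 19.7% with TK, 14.5% with TN, 8.55% with DB and 6.58% with COM, against 15.4%, 11.7%, 10.02% and 6.36% of all genes, so the COM and DB shares were near or below the background. Among 31 further hydrolases, 4 rose and 6 fell with TK, and 3 rose and 1 fell with TN. Their share called was 32.3% with TK and 12.9% with TN, the latter near that of all genes. ACP2, a lysosomal acid phosphatase, rose by log2 0.53 ± 0.10 with TK and 0.47 ± 0.10 with TN (edgeR adjusted p = 0.00118 and 0.00218). LIPA, the lipase that frees cholesterol from its esters, rose by 0.38 ± 0.09 and 0.45 ± 0.09 (adjusted p = 0.00546 and 0.00156). CTSV rose with TK by 0.45 ± 0.12 (adjusted p = 0.0117) and the aminopeptidase CTSH fell by −0.44 ± 0.10 (adjusted p = 0.00372). ATP6V1B1, a pump subunit isoform of specialised epithelia, fell by −0.59 ± 0.20 with TK (adjusted p = 0.0421), a call lost without any 1 of controls A, D, E and G, TK B, TK C and TK D (at most 0.159). All calls of ACP2, LIPA, CTSV and CTSH held in each of 11 fits without 1 library. Without TN B and TN C, the TN calls of ACP2 and LIPA remained (log2 0.55 and 0.39, edgeR adjusted p = 0.00902 and 0.0163). Without the library set term, the TK call of ACP2 was lost (edgeR adjusted p = 0.146).

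Of 34 further genes of membrane damage and repair, 5 rose and 3 fell with TK, 5 rose and 2 fell with TN, and 4 rose with COM and 3 with DB. The share called was 23.5% with TK, 20.6% with TN, 11.8% with COM and 8.82% with DB, the last below that of all genes. TRIM16, a ubiquitin ligase that works with galectin 3 at damaged membranes, rose by log2 0.56 ± 0.06 with TK and 0.40 ± 0.06 with TN (edgeR adjusted p = 5.1e-06 and 0.000206). It rose by 0.35 ± 0.06 with COM (adjusted p = 0.000918). Its near-copy TRIM16L was as abundant, at a median of 35.9 TPM against 31.2 TPM, so the split of reads between them is uncertain. CHMP6, a subunit of the ESCRT-III filaments that reseal membranes, rose with TN by 0.44 ± 0.10 (adjusted p = 0.00623), a call lost without TN A (0.0541). ANXA6, an annexin that binds injured membranes in the presence of calcium, fell with TN by −0.33 ± 0.08 and with TK by −0.38 ± 0.08 (adjusted p = 0.00446 and 0.00185). Without TN B and TN C, TRIM16, CHMP6 and ANXA6 were still called with TN (log2 0.43, 0.55 and −0.35, edgeR adjusted p = 0.00276, 0.00747 and 0.0333). FBXO2, which recognises glycoproteins of damaged lysosomes, fell with TK by −0.42 ± 0.12 (adjusted p = 0.0234), a call lost without control D, TK B or TK D (at most 0.0847) and without the library set term (0.190).

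Of 41 further autophagy genes, 5 rose with DB, 3 rose and 1 fell with COM, 3 rose with TN, and 2 rose and 1 fell with TK. With TK and TN the share called, 7.32% in each, was below that of all genes (15.4% and 11.7%). With DB it was 12.2% against 10.02% of all genes, and with COM 9.76% against 6.36%. VMP1, which is needed to form the autophagosome membrane, rose with DB by log2 0.43 ± 0.08 and with COM by 0.28 ± 0.08 (edgeR adjusted p = 0.000779 and 0.0276). DRAM2, a relative of DRAM1, fell with TK by −0.43 ± 0.10 (adjusted p = 0.00347). BNIP3, a receptor for mitochondria, fell with COM by −0.40 ± 0.11 (adjusted p = 0.0197), a call lost without COM B or COM C (at most 0.105). Among 18 genes that control TFEB and mTORC1, RRAGC, a GTPase that holds TFEB at the lysosome, rose with COM and DB by 0.31 ± 0.07 and 0.32 ± 0.07 (adjusted p = 0.00718 and 0.00462). Its COM call was lost without COM C (adjusted p = 0.0581). LAMTOR4 and LAMTOR5, parts of the Ragulator complex, fell with DB by −0.44 ± 0.13 and −0.36 ± 0.10 (adjusted p = 0.0329 and 0.0205). Control A, DB A or DB D left out ended both calls, and DB B that of LAMTOR4 (at most 0.128 and 0.122), and the set term left out ended that of LAMTOR5 (0.0936).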

How the data were processed

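Messenger RNA was measured by sequencing in 27 libraries of MCF10DCIS.com cells. For each library the authors deposited a gene table of expected counts, TPM and effective lengths, per the file headers. RSEM, Bowtie2, Trim Galore and GRCh38 are named in the submitters' processing notes. Not given in the sources used here are their versions, the annotation and the handling of strand. RSEM divides reads that fit several genes, so near-identical copies are uncertain.

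After rounding, the expected counts went into edgeR 4.0.16 under R 4.3.3. The filter was filterByExpr over the 6 groups and the scaling TMM. All 27 libraries shared 1 quasi-likelihood fit, with group means plus a term for the 3 library sets. Benjamini-Hochberg adjustment ran over all 16173 genes. Fold changes are log2 with the SE of the fit, CPM are counts scaled to the TMM library size, and TPM are the deposited values. Effective lengths gave each library's mean fragment length. Libraries were grouped by titles and treatment labels. Replicates all differed by more than sampling noise (chi-square per degree of freedom 2.463 to 70.375 over 51 pairs).

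The members and lists were chosen with earlier results of these data known. Named with values in a control comparison were the called members, at most 12 by smallest p, and ATP6V0D1, ATP6V1H, LAMP1, CTSD, CTSB, MCOLN1, TFEB, SQSTM1, MAP1LC3B and LGALS3 in addition. For contrasts of forms these were at most 6 called members. Of the wider list, up to 4 largest rises and falls with a mean of at least 5 CPM were eligible, and further members, or a named gene's values in other comparisons, are given to complete a subset. Alternatives were no set term, replicate letters as a block, RLE scaling, no filter, DESeq2 1.42.0, contrasts within sets, and leaving out each library. Mean fragment length as a term and leaving out TN B and TN C together were added after the data had been seen. Correlations of deviations between same-lettered libraries ran from −0.158 to 0.446 within a set (median 0.171) and from −0.070 to 0.100 between sets (median 0.019). For libraries with other letters they ran from −0.107 to 0.363 within a set (median 0.1015) and from −0.468 to 0.201 between sets (median −0.070). These ranges overlap and the same-lettered medians are higher, so whether the letters pair libraries is undecided. The model was tested on simulated counts with changes in TK only, the same dispersion for every gene and set effects shared by all groups. That simulation does not cover effects that differ between sets. Promoter sequences are from RefSeq.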

Additional observations from a re-analysis of the deposited data

Results flagged for a closer look

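In groups of 4 to 10 libraries, a library was noted where its gap to the nearest other was larger than Dixon's 95% critical value allows. Chance marks about 1 group in 20, and 9 of the 168 values examined (28 genes in 6 groups) were marked. Library C of its group stood apart in 6 of the 9. In COM C, CTSC was high at 501.7 CPM (next 415.5) and HEXA low at 92.5 CPM (next 108.6). In TN C, CTSD was low at 660.8 CPM (next 981.3) and HEXA low at 90.5 CPM (next 98.6). In SPH C, GLA was 14.3 CPM against 13.9 for the next, and LAMP1 was low at 168.9 CPM (next 180.8). LAMP1 was high in COM D at 191.2 CPM (next 170.0). In the TK group, ATP6V1H was low in TK B at 37.4 CPM (next 41.0) and LAMP2 high in TK D at 99.3 CPM (next 87.2). The C libraries of COM, SPH and TN are the only ones of their groups in library set 2, and the part of the set in these values was not tested gene by gene.

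The effect of TN on NBR1, an autophagy cargo receptor, differed between library sets. It was log2 −0.33 against the controls of set 1 and 0.21 against those of set 2, a difference of 0.54 ± 0.12 (SE, edgeR adjusted p = 0.0156). Of 184 such differences tested over the 46 genes and 4 forms, this was the 1 called. Set 2 holds a single TN library, TN C.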

How the results depend on the processing

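Counts of called members moved by more than 1.5 times as follows. For COM (4 called), the contrast within library set 1 called 2, while calls over all 16173 genes went from 1029 to 661. Library sets 2 and 3 hold 1 library each of COM, DB and TN, so their counts are left out here. For DB (5), 3 were called with no library set term, 2 with mean fragment length as a further term and 1 within set 1. Over all 16173 genes the DB calls went from 1620 to 915, 709 and 339 in these settings. For TN (11), 6 were called with no set term and 7 without TN B and TN C. Over all genes the TN calls went from 1896 to 695 and 1531 (the last of 16790 genes). For TN against TK (0), 1 was called with no filter on low counts, where 375 of 38574 genes were. For COM against the dihydrates (3), 1 was called with no set term, 5 with fragment length and 5 with DESeq2. Over all genes these calls went from 613 to 199, 923 and 869. With replicate letters as a block in place of the set, the replicate block gave 2 for DB, 4 for TN, 1 for COM against the dihydrates and 8 for TN against TK. Over all 16173 genes that block gave 409, 396, 438 and 834. Whether the letters pair libraries is undecided. WIPI1 with COM turned to log2 −0.005 within set 3 (edgeR adjusted p = 1.0). Leaving out 1 library gave 2 to 4 calls for COM, 3 to 6 for DB, 0 to 0 for SPH, 14 to 18 for TK, 4 to 12 for TN, 0 to 0 for TN against TK, 13 to 22 for bipyramids against rounded forms, 0 to 6 for COM against the dihydrates, 19 to 24 for any difference and 7 to 14 for the control sets (13). The cause was not tested. Contrasts within a set rest on fewer libraries. All TK libraries are in set 2, so the TK effect rests on the set effect estimated from the controls and the other 4 forms. Over the members named, 1886 of 2124 values kept their side of the threshold, 234 lost the call, 3 gained it and 1 reversed. Results that were not called could also change sign. With 1 library left out, ATP6V0D1 with COM ran from log2 −0.061 to 0.016 and CTSB with DB from −0.186 to 0.028.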
